A study of Mus musculus with 4 samples.

Results

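The enzymes described here modify and cross-link collagen. They are P4ha1, P4ha2 and P4hb, the subunits of collagen prolyl 4-hydroxylase, the lysyl hydroxylases Plod1, Plod2 and Plod3, and the lysyl oxidases Lox, Loxl1 and Loxl2. These 9 genes were chosen by function, and their probe sets were those to which the annotation of the array gave that gene as the only symbol. By this rule 14 of the 45101 probe sets on the array belonged to 8 of the 9 genes. Loxl2 had none, because both of its probe sets were listed with a further symbol. Of the 14 probe sets, 11 reached a log2 value of 6 on at least 1 array, the floor used here for a measurable signal, and all 8 genes had such a probe set. Where a gene had several, the one with the highest mean over the arrays stood for the gene.

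The samples were mucosal scrapings of the colon from mice of the 129S6/SvEv strain at 5 weeks of age, and 4 genotypes were hybridised, each on 1 array. VhlF/F mice carried floxed Vhl and served as the control, and VhlΔIE mice lacked Vhl in the intestine. VhlF/F/Apcmin/+ and VhlΔIE/Apcmin/+ mice carried in addition the Min allele of Apc, an intestinal tumour model. The design text lists 4, 3, 3 and 5 mice in this order, without saying whether their RNA was pooled, and the Cre line is not given in the sources used here. Stromal cells of the VhlΔIE mice are not described as lacking Vhl. With 1 array per genotype no difference has a replicate check. No test was made, since one would have to treat arrays of different genotype as replicates, and no p-value is given. In tissue RNA, fewer cells of a type and less transcript per cell cannot be told apart.

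Procollagen chains are modified in the endoplasmic reticulum before they leave the cell. Prolyl 4-hydroxylase is a tetramer of alpha subunits, which hold the catalytic site, and beta subunits. Its product, 4-hydroxyproline, keeps the collagen triple helix stable at body temperature. Lysyl hydroxylases modify lysines that later carry sugars or form cross-links, and the copper-dependent lysyl oxidases act outside the cell, turning lysine side chains into the aldehydes from which cross-links form. The prolyl and lysyl hydroxylases need oxygen, iron, ascorbate and 2-oxoglutarate, as do the enzymes that mark hypoxia-inducible factors (HIF) for recognition by the Vhl protein. P4ha1, P4ha2, Plod2 and Lox are known as genes that hypoxia induces in cultured cells.

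To show promoter sequence of these enzymes, the 250 bases before the start of each gene were read from the RefSeq promoter table of GRCm38.p6. Windows of 5 of the 9 genes were used, P4ha1, P4ha2, P4hb, Plod1 and Plod3. Plod2, Loxl1 and Loxl2 had no window there, and Lox lies on a chromosome that was left out. The windows of P4ha1 and P4ha2, the genes with the largest Vhl differences, stand beside those of P4hb and Plod3, whose differences were small. Capitals mark each ACGTG or GCGTG, the core letters bound by HIF, on either strand, so that CACGT and CACGC are the same letters read from the other strand. ACGTG also lies within CACGTG, the E-box that clock and Myc family proteins bind.
P4ha1, chr10:59323046-59323295, plus strand: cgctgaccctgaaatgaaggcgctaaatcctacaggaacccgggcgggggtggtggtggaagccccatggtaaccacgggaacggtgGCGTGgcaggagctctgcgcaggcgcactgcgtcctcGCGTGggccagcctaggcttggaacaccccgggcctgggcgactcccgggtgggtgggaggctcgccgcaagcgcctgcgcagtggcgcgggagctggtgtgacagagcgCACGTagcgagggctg
P4ha2, chr11:54100674-54100923, plus strand: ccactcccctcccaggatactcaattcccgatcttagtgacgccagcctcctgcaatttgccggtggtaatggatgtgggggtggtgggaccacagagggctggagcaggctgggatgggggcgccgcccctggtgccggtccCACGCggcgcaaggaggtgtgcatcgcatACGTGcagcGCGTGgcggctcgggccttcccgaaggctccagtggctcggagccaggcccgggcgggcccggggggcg
P4hb, chr11:120573254-120573503, minus strand: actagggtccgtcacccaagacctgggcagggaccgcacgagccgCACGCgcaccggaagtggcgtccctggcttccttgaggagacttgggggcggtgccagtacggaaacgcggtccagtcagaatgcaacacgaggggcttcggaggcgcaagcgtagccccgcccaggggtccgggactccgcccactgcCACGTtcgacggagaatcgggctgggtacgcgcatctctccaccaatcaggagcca
Plod3, chr5:136986769-136987018, plus strand: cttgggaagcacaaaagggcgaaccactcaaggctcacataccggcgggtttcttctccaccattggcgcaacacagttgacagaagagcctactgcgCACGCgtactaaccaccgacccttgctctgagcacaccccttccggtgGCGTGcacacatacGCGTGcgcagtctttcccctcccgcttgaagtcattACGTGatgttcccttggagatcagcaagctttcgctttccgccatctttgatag

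P4ha1 and P4ha2 each held 3 matches, P4hb 2, Plod1 1 and Plod3 4. Of the 27025 genes with such a window, 38.6% held at least 1 match and 16.8% at least 2. The 5 windows were rich in G and C, at 55.6 to 70.0%, against a median of 52.0% over all genes, and their part in the number of matches was not tested. Of the Vhl differences given below, those of Plod3, with the most matches, were 0.29 without and 0.08 with the Apc mutation. Those of P4hb were 0.23 and 0.48. With only 5 windows, a relation between the matches and the Vhl differences was not tested. A match is a description of the letters and not a binding site.

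The arrays themselves separated by more than genotype. Vhl read 8.40 and 8.17 in the floxed arrays and 7.03 and 6.56 in the deleted arrays. Epithelial markers were bright, with Epcam between 13.87 and 13.91, though not all level, with Cdx2 between 9.82 and 10.49. Muscle was also present, with Acta2, smooth muscle actin, between 12.44 and 12.80. Xist, made from the inactive X chromosome of females, read 11.37 and 11.83 in the floxed arrays and 5.58 and 6.25 in the deleted arrays, so the sex of the mice and Vhl status cannot be told apart in any Vhl difference below. The Y-linked genes Eif2s3y, Kdm5d and Uty, however, differed by only -0.06 to 0.33 between deleted and floxed Vhl without the Apc mutation, and by 1.24 to 1.54 with it. The Vhl floxed array thus held high Xist together with Y-linked transcripts such as Eif2s3y at 8.58, against 7.27 in the floxed array with mutant Apc and 8.78 and 8.80 in the deleted arrays. Of 9 hepatocyte markers, 8 were at least 2-fold lower in the Vhl deleted than in the Vhl floxed array without the Apc mutation, such as Alb, at 11.53 against 6.10 to 7.25 elsewhere, while Ttr lay between 10.99 and 11.89 on all arrays. The median difference of 13 clock genes was -0.58 without and -0.57 with the Apc mutation for Vhl deletion, but single clock genes differed by far more, in both directions. At least 2-fold lower were 5 and 4 of them, such as Dbp at -3.51 and -2.68, and 1 was higher in each background, Npas2, at 1.51 and 1.58. The median Apc difference of the clock genes was 0.47 with floxed and 0.37 with deleted Vhl, and Dbp differed by 1.37 and 2.20. For 5 adipocyte markers the median Apc difference was -0.97 with floxed Vhl and -0.56 with deleted Vhl, and the median Vhl difference was -0.05 without and 0.84 with the Apc mutation. The part of these in the values of the enzymes was not tested.

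Vhl deletion went with higher P4ha1 and P4ha2, the catalytic alpha subunits of prolyl 4-hydroxylase, in both Apc backgrounds, and with Plod2 higher by about 2-fold in both. On the probe set that stood for it, Lox was higher by as much as Plod2 without the Apc mutation only. Its second probe set differed by 0.60 without and 0.42 with the mutation. The other 4 genes differed by at most 0.71. Without the Apc mutation 2 of 8 genes were at least 2-fold higher, where 2.27% of all 11871 genes above the floor were. With the mutation 3 of 8 were, against 2.82% of all genes. The 2 alpha subunits were at least 2-fold higher in both backgrounds, as were 1.58% of all genes, and 0 of 8 genes were at least 2-fold lower in either, against 1.60% and 1.52%, or 0.733% in both. The median difference of the 8 genes was 0.68 without and 0.59 with the Apc mutation, and that of all genes was -0.02 in both. These differences are on the log2 scale, where 1 is a 2-fold difference.

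P4ha1 is the more widely expressed of the alpha subunits. Its probe set 1452094_at read 8.02 in the Vhl floxed array, 9.80 in the Vhl deleted array, 8.01 in the Vhl floxed array with the Apc mutation and 9.90 in the Vhl deleted array with it. Both deleted arrays thus lay above both floxed arrays, and the arrays of the same Vhl status differed by at most 0.10. The difference was 1.77, or 3.42-fold, without the Apc mutation and 1.89, or 3.71-fold, with it. The difference ranked 79 from the highest of all 11871 genes without the mutation and 94 with it. A second probe set, 1426519_at, read 6.40, 8.32, 6.02 and 8.27 in the same order, with differences of 1.93 and 2.24. Its floxed values lay near the floor, where background compresses differences.

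P4ha2 encodes another catalytic alpha subunit and had a single probe set, 1417149_at. It read 6.71 in the Vhl floxed array, 8.27 in the Vhl deleted array, 6.13 in the array of floxed mice with the Apc mutation and 8.25 in that of deleted mice with it. The deleted arrays differed by 0.02, while the floxed arrays differed by 0.58. The Vhl difference was therefore 1.56, or 2.95-fold, without the Apc mutation and 2.12, or 4.35-fold, with it. The larger value came from the lower reading of the floxed, Apc mutant array, which lay close to the floor. Averaged over the backgrounds, the differences of P4ha1 and P4ha2 were 1.83 and 1.84.

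P4hb encodes the beta subunit, which is protein disulfide isomerase and serves many secreted proteins besides collagen. Without the Apc mutation it read 12.36 with floxed and 12.58 with deleted Vhl, and with the mutation 12.18 and 12.65. The deleted arrays lay above the floxed arrays here too, but only by 0.23 without and 0.48 with the Apc mutation. Without the mutation 19.1% of all genes had a larger difference, and with it 9.56% did. Its probe set, 1437465_a_at, is the only one for the gene. Other protein folding factors of the endoplasmic reticulum had differences of a like size, with medians of 0.17 and 0.26 over 14 genes, of which 0 were at least 2-fold apart. Among them Pdia6, a disulfide isomerase, was higher by 0.32 and 0.48, and the chaperone Hyou1 by 0.13 and 0.54. Ero1a, an oxidase of this compartment, was placed in the list of HIF targets below instead, and it was higher by 1.94 and 2.13.

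**Figure D1:**
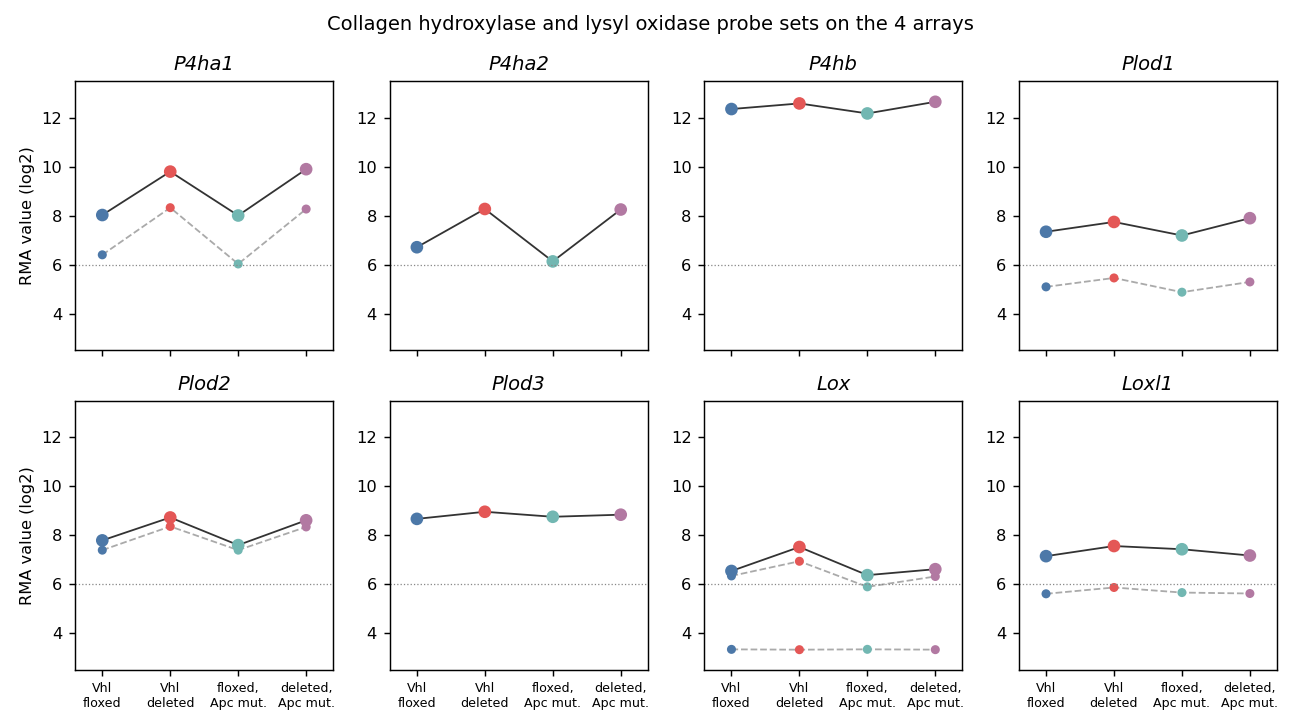
RMA log2 values (vertical axes) of every probe set of the 8 measured collagen enzymes on the 4 arrays (horizontal axes), with 1 point per array. Large points on solid lines are the probe set with the highest mean, small points on dashed lines are the others, lines only join the points of a probe set, and the dotted line is the floor of 6. P4ha1, P4ha2 and Plod2 alternate with Vhl status, Lox is highest in the Vhl deleted array at 7.51, and its dimmest probe set stays at 3.32 to 3.33.

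Among the lysyl hydroxylases, Plod2 had the largest Vhl difference in both backgrounds. It encodes the enzyme known for hydroxylating lysines in the telopeptides of collagen, the sites from which stable cross-links form. Probe set 1416686_at read 7.78 in the Vhl floxed array, 8.72 in the Vhl deleted array, 7.59 for floxed mice with mutant Apc and 8.61 for deleted mice with mutant Apc. Its differences of 0.94 and 1.01 lay on either side of the 2-fold line. The other probe set, 1416687_at, read 7.39, 8.36, 7.39 and 8.34, with differences of 0.97 and 0.95. The count of 3 genes with the Apc mutation thus rests on which probe set stands for Plod2, and with the mean of both the difference was 0.98.

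Plod1, the lysyl hydroxylase that acts in the helical part of collagen, read 7.34, 7.74, 7.19 and 7.90 in the same order of arrays. Its differences were 0.40 without and 0.71 with the Apc mutation. A dim probe set of the gene, 1445893_at, stayed between 4.87 and 5.45 and differed by 0.36 and 0.42. Plod3, which also transfers sugars to hydroxylysine, read 8.66, 8.95, 8.75 and 8.84, and its differences were 0.29 and 0.08. For Plod3 the gap between the lower deleted array and the higher floxed array was only 0.08.

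The lysyl oxidases did not share one pattern over the 4 arrays. Lox, which cross-links collagen and elastin, read 6.54 in the Vhl floxed array, 7.51 in the Vhl deleted array, 6.36 for floxed mice with mutant Apc and 6.61 for deleted mice with mutant Apc, on probe set 1416121_at. The Vhl deleted array without the Apc mutation stood above the other arrays, which lay within 0.24 of each other. The Vhl difference was 0.98, just under 2-fold, without the mutation and 0.24 with it. After cyclic loess normalization the former was 1.02, past 2-fold. A second probe set, 1448228_at, read 6.33, 6.93, 5.89 and 6.31, with differences of 0.60 and 0.42, so the probe sets differed in how far the backgrounds were apart. The third, 1437903_at, read 3.32 to 3.33 on all arrays, at background.

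Loxl1, a lysyl oxidase best known for elastic fibres, read 7.14 with floxed and 7.55 with deleted Vhl when Apc was wild type, and 7.42 and 7.17 when it was mutant. Its Vhl difference was 0.41 without and -0.26 with the Apc mutation. Among the probe sets that stood for the 8 genes, that of Loxl1 was the only one whose deleted and floxed arrays overlapped. A dimmer probe set, 1436063_at, gave 0.26 and -0.04. For the other 7 genes both deleted arrays lay above both floxed arrays, as they did for 27.7% of all genes, and for a further 33.4% of all genes both lay below. For Lox the gap between the lower deleted and the higher floxed array was only 0.07. Its second probe set, 1448228_at, overlapped, at 6.31 in the Vhl deleted, Apc mutant array and 6.33 in the Vhl floxed array. By probe set, both deleted arrays lay above in 9 of 11, against 25.9% of all probe sets above the floor.

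**Figure D2:**
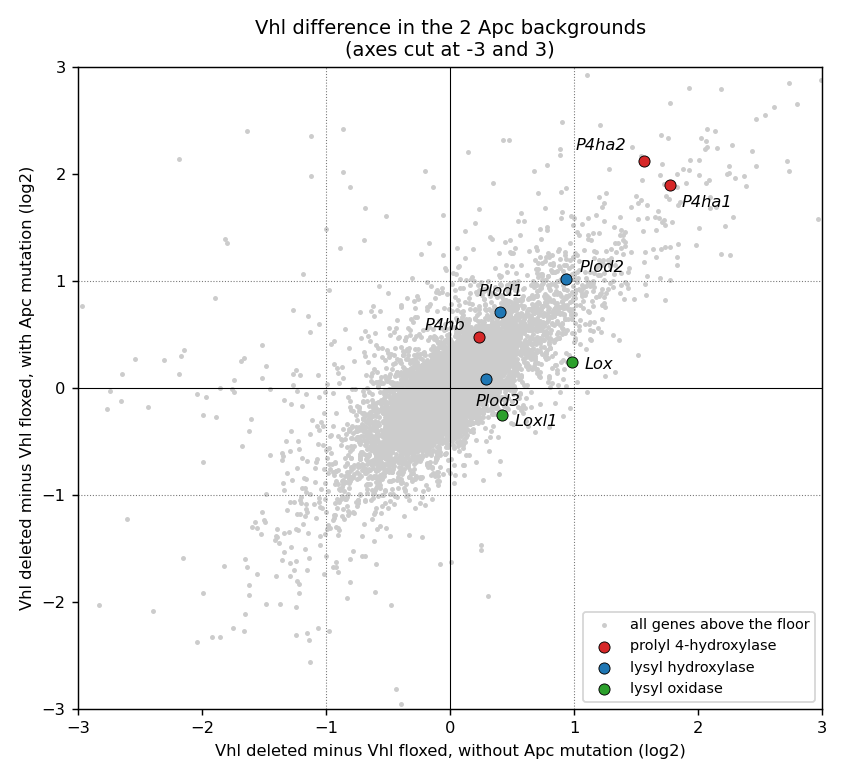
Vhl deleted minus Vhl floxed (log2) without the Apc mutation (horizontal axis) and with it (vertical axis), 1 grey point per gene above the floor and 1 coloured point per collagen enzyme. Dotted lines mark 2-fold, and genes beyond 3 on either axis are not drawn. P4ha1 and P4ha2 lie past the line on both axes, Plod2 lies at 0.94 and 1.01, and Lox, at 0.98 and 0.24, lies below the diagonal.

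The Vhl difference with the Apc mutation was set against that without it to compare the backgrounds. Of the 8 genes, 0 differed by at least 2-fold between the backgrounds, as did 1.57% of all genes. P4ha2 had the largest positive value, at 0.56, and Lox and Loxl1 the lowest, at -0.74 and -0.67. The second Lox probe set, 1448228_at, gave only -0.18. The dimmer Loxl1 probe set, 1436063_at, gave -0.30 and lay under the floor on every array. The remaining 5 genes lay between -0.21 and 0.31. The macrophage and fibroblast lists also had lower Vhl differences with the Apc mutation, with medians of -0.44 and -0.56 for this contrast, and their part in the values of Lox and Loxl1 was not tested.

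None of the enzymes was 2-fold apart between Apc mutant and wild-type arrays, and the largest differences were those of Lox with deleted Vhl, at -0.91, and of P4ha2 with floxed Vhl. With floxed Vhl 0 of 8 genes were at least 2-fold higher or lower, against 0.118% and 0.901% of all genes, and the median was -0.16. P4ha2 differed by -0.58, which ranked 286 from the lowest of all genes, and 6 of the 8 genes were below 0, where 50.8% of all genes were above it. P4ha1 differed by -0.02, P4hb by -0.18, Plod2 by -0.19 and Lox by -0.17. Plod3 and Loxl1 were the genes above 0, at 0.09 and 0.28.

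With deleted Vhl, again 0 of 8 genes were at least 2-fold higher or lower with the Apc mutation, against 0.202% and 0.118% of all genes. Lox was lower by 0.91, a difference that ranked 20 from the lowest of 11871 genes, and its second probe set was lower by 0.62. Loxl1 differed by -0.39, and its dimmer probe set by -0.25. The other 6 genes lay between -0.12 and 0.15. In this comparison the medians of fibroblast, smooth muscle, endothelial and macrophage markers were -0.11, -0.09, -0.04 and -0.10. Eln, the elastin that lysyl oxidases cross-link, differed by -0.62, and Col1a1 and Col1a2, the chains of type I collagen, by 0.02 and 0.03. Eln had the lowest value of the 17 collagen and elastic fibre genes described below, whose median was -0.05, with 5 above 0.

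**Figure D3:**
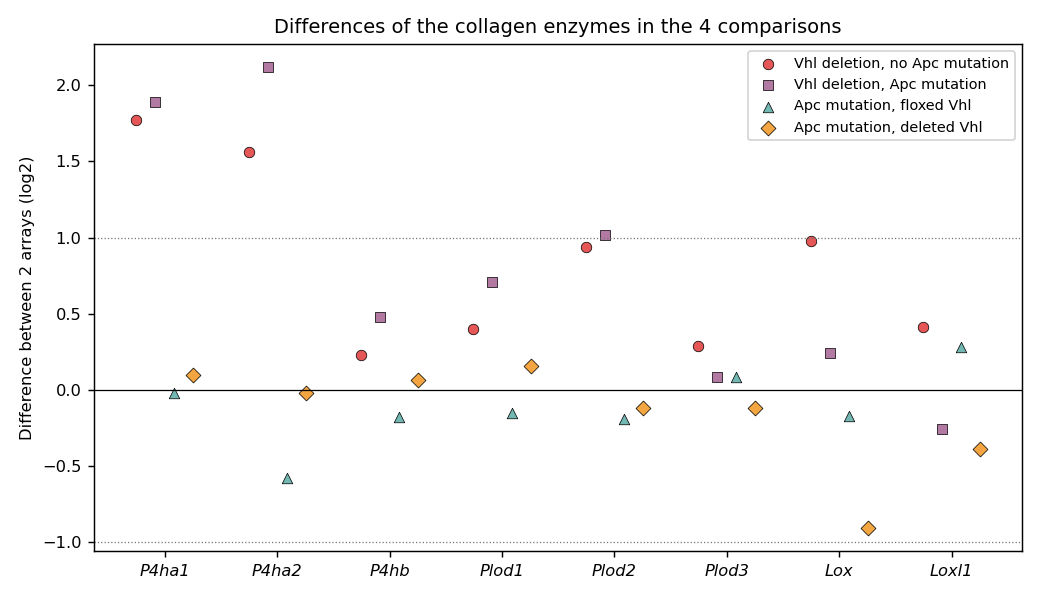
Difference between 2 arrays (log2, vertical axis) of the 8 measured collagen enzymes in the 4 comparisons, 1 symbol per comparison, with dotted lines at 2-fold. The Vhl differences of P4ha1 and P4ha2 lie between 1.56 and 2.12, while the Apc differences of all 8 genes lie between -0.91 and 0.28.

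Other enzymes and partners of collagen maturation had smaller Vhl differences than the alpha subunits. Of 22 genes listed, 13 lay above the floor, and 0 were at least 2-fold higher or lower in either background, with medians of 0.17 and 0.20. Colgalt2, a collagen galactosyltransferase, was higher by 0.45 and 0.28. Crtap, a partner of prolyl 3-hydroxylation, was higher by 0.19 and 0.52, and P3h4, a member of the same family without known catalysis, differed by -0.39 and -0.31. Serpinh1, the collagen chaperone HSP47, differed by 0.17 and 0.28. P4ha3, P3h1, P3h3, Loxl3, Loxl4 and Pcolce2 did not reach the floor on any array, and Fkbp10, Adamts2 and Adamts14 had no probe set with a single symbol.

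Of 18 collagen and elastic fibre genes, 17 were measured, all above the floor. Differences were above 0 for 16 of 17 without and 14 of 17 with the Apc mutation, with medians of 0.44 and 0.24. Col18a1, whose product carries endostatin, was higher by 1.01 and 0.91 and was the only one past 2-fold, without the Apc mutation. Col1a1 was higher by 0.54 and 0.18, Col1a2 by 0.51 and 0.15, and Col4a2, of basement membranes, by 0.63 and 0.54. In the median, the collagen and elastic fibre genes were therefore nearer to the background of -0.02 than P4ha1 and P4ha2 were.

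HIF targets known from other tissues had medians of 1.92 and 1.95, with 11 and 10 of 16 genes at least 2-fold higher. The transcript of Hif1a, a HIF subunit, was lower with deleted Vhl, at 10.44 against 12.36 without the Apc mutation and 10.07 against 12.40 with it. The reason was not tested. The targets ranged widely, from Ddit4 at -0.06 and 0.17 to Ndufa4l2 at 5.76 and 5.52. Ero1a, the oxidase that recharges protein disulfide isomerase, was higher by 1.94 and 2.13, Vegfa by 1.90 and 1.91, and Adm by 2.01 and 2.13. P4ha1 and P4ha2 differed by about as much as these 3 examples. Targets with smaller differences, such as Ldha at 0.69 and 0.59, lay nearer to Plod2. Of the other oxygen-sensing hydroxylases, Egln3 was higher by 3.67 and 3.03 and Egln1 by 0.81 and 0.81, while Egln2 and Hif1an differed by -0.11 and -0.16 without and -0.12 and -0.01 with the Apc mutation. P4htm, a transmembrane relative of the prolyl 4-hydroxylases, did not reach the floor.

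Markers of the stromal cells that make most collagen did not share one direction. Fibroblast markers had a median of 0.28 without and -0.19 with the Apc mutation, with 12 and 4 of 14 above 0, and 0 at least 2-fold apart. Col14a1 is in this list and in that of the collagen and elastic fibre genes. Their summed linear signal was 9330 and 12123 in the floxed arrays without and with the mutation and 11434 and 10140 in the deleted arrays. Pdgfra was higher by 0.78 and 0.70, and Lum differed by -0.10 and -0.91. All 12 smooth muscle markers had Vhl differences below 0 in both backgrounds, and their medians were -0.62 and -0.43. Their summed signal was 41952 and 37412 in the floxed and 29789 and 28123 in the deleted arrays.

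Endothelial markers had medians of 1.16 and 0.87, with 12 of 12 above 0 in both backgrounds and 7 and 4 at least 2-fold higher. Their summed signal was 1714 and 1810 in the floxed arrays and 3975 and 3826 in the deleted arrays. Macrophage markers had medians of 0.82 and 0.33, with 11 and 10 of 11 above 0. Their summed signal was 5085 and 5916 in the floxed and 8008 and 7190 in the deleted arrays. Epithelial markers had medians of 0.04 and 0.09, and their summed signal stayed between 101597 and 106744. No marker of these lists lay under the floor on all arrays. The part of endothelial and macrophage cells in the higher P4ha1, P4ha2, Plod2 and Lox values was not tested.

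**Figure D4:**
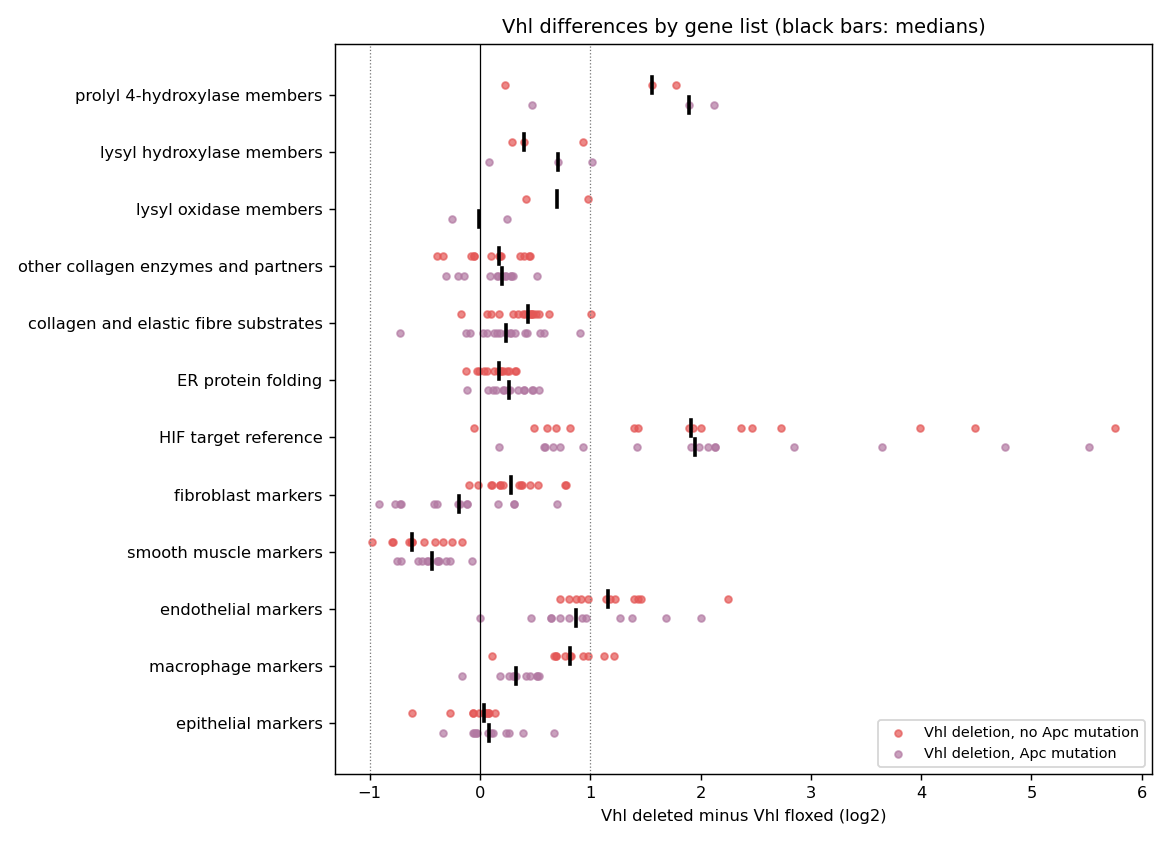
Vhl deleted minus Vhl floxed (log2, horizontal axis) for each gene above the floor in 12 lists (vertical axis), with the comparison without the Apc mutation above and that with it below, black bars at the medians and dotted lines at 2-fold. The alpha subunits P4ha1 and P4ha2, at 1.56 to 2.12, lie to the right of the other collagen enzymes and partners, with medians of 0.17 and 0.20, and near the medians of the HIF targets, while P4hb, at 0.23 and 0.48, lies among the partners.

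Genes with the most similar course over the 4 arrays were found for the 4 enzymes whose values spanned at least 1, by the Euclidean distance between log2 values centred on each gene's own mean. For P4ha1 they were Osmr, the oncostatin M receptor, Nsg2 and Gspt2, at distances of 0.08, 0.11 and 0.12. For P4ha2 they were Kif23, a mitotic kinesin, Ier3 and Lpcat4, at 0.29 to 0.30. Plod2 was closest to Cdk1 and Ccna2, which drive the cell cycle, and to Psat1, an enzyme of serine synthesis, at 0.04 to 0.08. Lox was closest to Trpa1, Psca and Dock10, at 0.17 to 0.28. With only 4 arrays many genes share such a course.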

How the data were processed

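Expression was measured on an Affymetrix mouse array, with 1 array for each of 4 genotypes. The deposited table holds 1 log2 value for every probe set on each array. Per the submitters' processing notes the authors used affy and RMA. Their versions are not stated in those notes. RMA gives the arrays one distribution, which would hide a change common to most transcripts, and it compresses differences of dim probe sets. The array medians were 6.06, 6.05, 6.06 and 6.07. The number of arrays limits the precision.

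Symbols came from the platform annotation of GEO, updated through Entrez identifiers to the RefSeq table of GRCm38.p6. Of all probe sets, 34958 had 1 symbol, 932 had several and 9211 were absent from the annotation. The 18194 genes so named included 11871 that reached the floor of 6. Each difference subtracts the log2 value of 1 array from that of another. Named were all member genes. From each other list came those at least 2-fold apart in a Vhl comparison or else the 3 with the largest mean absolute difference. Of these some are given as examples. For each member whose values spanned at least 1, the 3 genes of most similar course were named, passing over clone and predicted-gene symbols. Vhl and Hif1a were named as checks of the arrays. Epcam, Acta2, Ttr, Ldha, Ddit4, Egln1, Egln2, Hif1an, Serpinh1, Eln, Col1a1, Col1a2, Col4a2 and Col14a1 were named after their values were seen. The members and lists were chosen with earlier results of these data known. The counting was tested on simulated data. Promoter windows that overlapped on opposite strands matched base for base in 1683 of 1683 cases. Software was limma 3.58.1 under R 4.3.3 for cyclic loess, and Python 3.11.15 with pandas 2.3.3, numpy 2.4.6 and matplotlib 3.10.9 otherwise. Alternatives changed the floor (none, 7, or values under 6 set to 6), the probe sets (their mean, or none of suffix _x_at or _s_at, with or without _a_at), the scaling (cyclic loess, median centring) and the threshold (1.5-fold).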

Additional observations from a re-analysis of the deposited data

Results flagged for a closer look

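Loxl1 had Vhl differences of opposite direction, 0.41 without and -0.26 with the Apc mutation, as had 23.9% of all genes. The Apc differences were of opposite direction with floxed and with deleted Vhl for 5 of the 8 genes, as they were for 41.3% of all genes. P4ha1 differed by -0.019 and 0.099, P4hb by -0.180 and 0.067, Plod1 by -0.15 and 0.15, Plod3 by 0.086 and -0.120 and Loxl1 by 0.28 and -0.39. Each value is the difference of 1 array from another, and none of these contrasts was tested.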

How the results depend on the processing

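Over the 8 alternatives other than the threshold, all 310 recomputed differences of the member genes stayed within 0.20 of the values given. Changing the floor or leaving out probe sets by suffix kept the same probe set for each member still measured, so those differences could not move. Only averaged probe sets, cyclic loess and median centring could move them. Lox was not recomputed with averaged probe sets. Of 145 recomputed counts and medians over all 9 alternatives, 140 were kept, within 1.5-fold for counts and 0.20 for medians. With a gene's probe sets averaged, the median Vhl difference in wild-type Apc mice was 0.38, over 7 genes because Lox then fell below the floor, and it was 0.94 without probe sets of suffix _x_at, _s_at or _a_at, which left out P4hb. The suffix _a_at marks transcripts of the same gene, so leaving out only _x_at and _s_at was added after the data were seen, and the median was then 0.68. At a 1.5-fold threshold 4 genes were higher in that comparison, against 6.22% of all genes, 1 gene was lower with the Apc mutation and deleted Vhl, against 0.792%, and 2 differed between backgrounds, against 4.89% of all genes. Plod2 with the Apc mutation was under 2-fold with the mean over probe sets, at 0.98, and Lox without it past 2-fold after cyclic loess, at 1.02. Other causes were not tested. No paired analysis was possible because the labels give no replicate numbers shared by the genotypes, and leaving out an array would leave its genotype without one. The Vhl differences of both Apc backgrounds stand side by side in the report. Signal near background limits several probe sets, among them 3 under the floor on every array.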

Other observations

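The array holds 2 probe sets that its annotation lists under both Loxl2 and Gm21451, so neither gene can be named from them. Probe set 1431004_at read 8.27 with floxed and 8.78 with deleted Vhl when Apc was wild type, and 8.86 and 8.72 when it was mutant, with the Vhl floxed array lowest. Its Vhl differences were 0.52 without and -0.15 with the Apc mutation. The dimmer probe set 1452436_at read 5.08, 5.83, 5.59 and 5.41, again lowest in the Vhl floxed array, with differences of 0.75 and -0.18. Both shared with Loxl1 a difference above 0 without the Apc mutation and below 0 with it.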
